A study of Mus musculus with 11 samples.

Results

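The ATP-binding cassette (ABC) transporter family was followed in dendritic cells sorted from the spleens of mice carrying a B cell lymphoma and of naive mice. The members are the genes whose symbol starts with Abc, a subfamily letter from a to g and a digit, without Abca1 and Abcg1, the members best known as targets of the liver X receptors (LXR). The rule gave 46 of the 22180 genes tested, namely 15 of subfamily A, 9 of B, 10 of C, 3 of D, 1 of E, 3 of F and 5 of G, each read by a single probeset.

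The lymphoma-exposed group holds 5 arrays, numbered 1, 2, 3, 4 and 6 in their titles, of dendritic cells from Eµ-Myc transfer mice, in which transferred lymphoma cells driven by a Myc transgene made up an average of 10 to 36% of the spleen's lymphocytes. The naive group holds 6 arrays, numbered 1 to 6, of dendritic cells from C57BL/6 mice. Both groups are labelled C57BL/6, and neither is labelled as carrying a Cre transgene or a deleted allele. Sorting was on CD11c and MHC class II, with a labelled purity above 95%. The labels give neither the age of the mice nor the number of mice behind an array. Exposure took place in the spleen of the host, so effects of lymphoma cells and of other changes in the host cannot be told apart.

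ABC proteins bind and split ATP, and most use that energy to move a substrate across a membrane. Subfamily B and C members pump drugs, bile salts and conjugates out of cells or serve mitochondria and lysosomes. Most subfamily A and G members move lipids and sterols, while Abcg2 is a drug pump. Subfamily D members feed peroxisomes or export cobalamin from lysosomes. The E and F members have no membrane-spanning part and act on ribosomes. In dendritic cells the family is best known for peptide loading by Tap1 and Tap2, which carry other symbols, and for a link between drug pumps and cell migration.

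Values are log2 expression per probeset. A gene is called where limma's Benjamini-Hochberg adjusted p over all 22180 genes is under 0.05, differences are exposed minus naive on the log2 scale, and ± beside a mean is the SD over the 5 exposed or 6 naive arrays. As a mark for dim probesets, the 95th percentile of the 1105 olfactory receptor genes was taken, at 5.60, and 29 of the 46 members lay above it. These are bulk values, so fewer cells of a type and less RNA per cell cannot be told apart.

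Few members of the family were called. Abcb1a and Abca9 fell in the exposed cells and 0 members were called higher. Thus 2 of 46 members were called, against 1.42% of all genes, and 2 of 46 were called lower, against 0.546%. Calls of higher genes made up 0.879% of all genes. Without adjustment, 7 members had a p under 0.05, against 12.2% of all genes. The exposed and naive arrays did not overlap in 2 members, again Abcb1a and Abca9, against 2.29% of all genes. Among genes above the dim mark 2.39% were called, and both called members are among the 29 there.

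Most of the other members had small differences. Abcc3 (0.51), Abcg3 (-0.31), Abcc9 (0.24) and Abca6 (-0.20) had the largest among those not called. The median difference was 0.01 over the 46 members and 0.01 over all genes, and the median size of a difference was 0.059 for the members and 0.067 for all genes. A difference under 0.1 in size was found for 30 members, and 6 members had a difference of at least 0.2. The 95% interval of the difference lay within 0.5 either way for 41 members and within 0.3 for 34. With the values as deposited 24 members were positive and 22 negative, whereas a common 75th percentile gave 17 positive and 29 negative, so the sign of the small differences depends on the scaling.

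**Figure D1:**
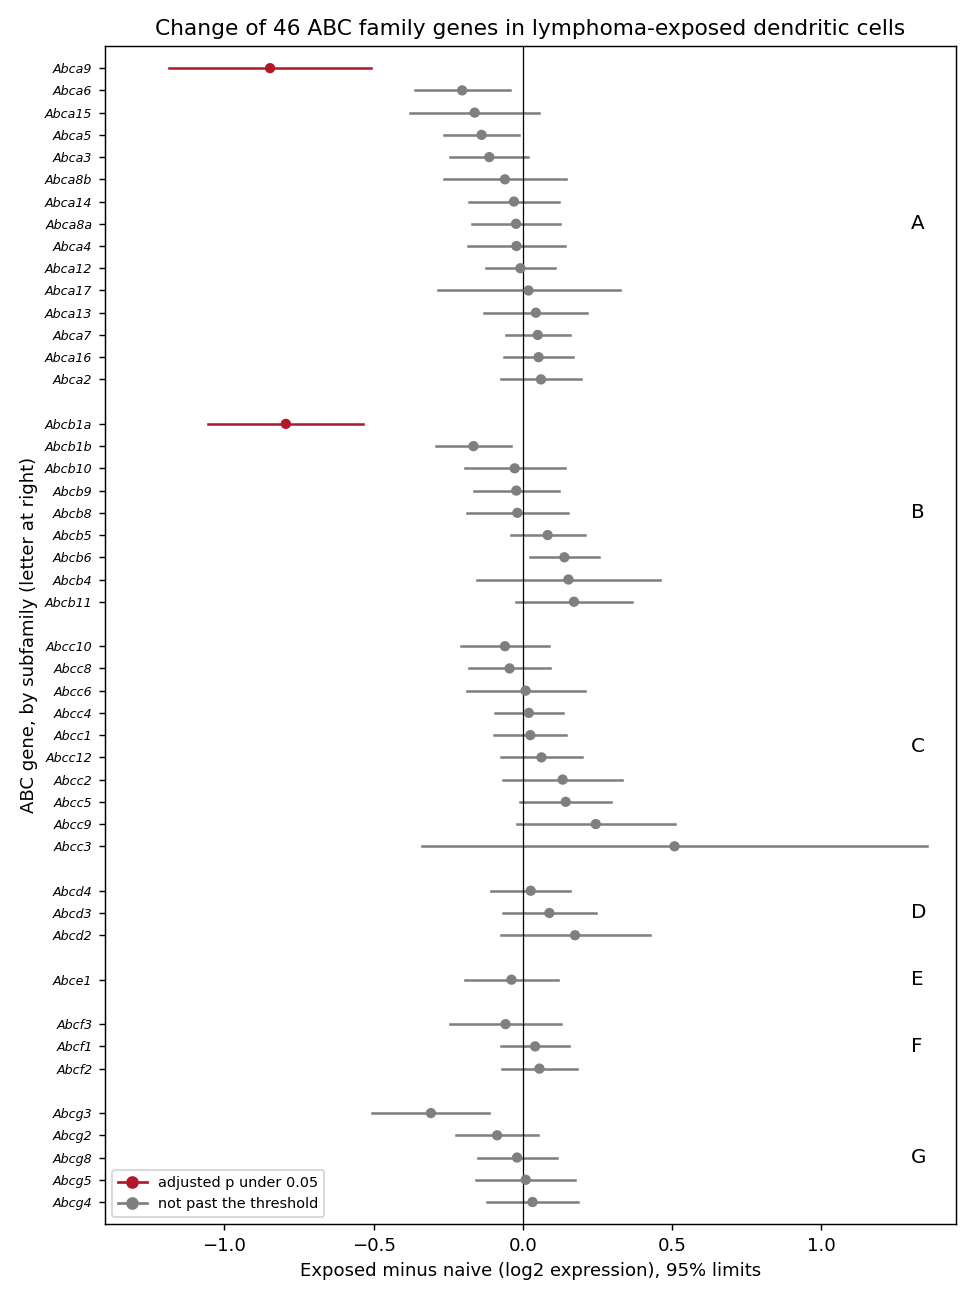
Difference between exposed and naive dendritic cells (exposed minus naive, log2, horizontal axis) for each of the 46 members, ordered by subfamily, with limma's 95% interval as a line and the called members in colour. Abcb1a at -0.79 and Abca9 at -0.85 lie left of the others, and the interval of Abcc3 is the widest.

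Abcb1a, which with Abcb1b encodes mouse P-glycoprotein, a pump that expels many drugs from cells, measured 8.76, 8.76, 8.94, 8.53 and 9.37 on exposed arrays 1, 2, 3, 4 and 6. On the naive arrays its lowest, median and highest values were 9.57, 9.62 and 9.92. Every exposed array lay below every naive array, with exposed array 6 nearest to the naive ones. The means were 8.87 ± 0.32 in exposed and 9.67 ± 0.13 in naive cells, a difference of -0.79 ± 0.12 (limma's SE; 95% interval -1.05 to -0.53; adjusted p = 0.00806), or 1.73-fold lower. Leaving out any 1 array gave differences between -0.92 and -0.71, all past the threshold.

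Abca9, a subfamily A member studied mainly for its regulation by cholesterol in human macrophages, measured 7.87, 7.17, 6.74, 7.30 and 7.42 on exposed arrays 1, 2, 3, 4 and 6. Its naive values had a lowest of 7.91, a median of 8.14 and a highest of 8.43. All 5 exposed arrays lay below the naive range, although exposed array 1 was only just under it. The means were 7.30 ± 0.41 in exposed and 8.15 ± 0.18 in naive cells, a difference of -0.85 ± 0.16 (SE; interval -1.19 to -0.51; limma's adjusted p = 0.0196), or 1.80-fold lower. The call was lost without exposed array 2 (-0.81; adjusted p = 0.0642), naive array 5 (-0.83; 0.0519) or naive array 6 (-0.79; 0.0511).

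**Figure D2:**
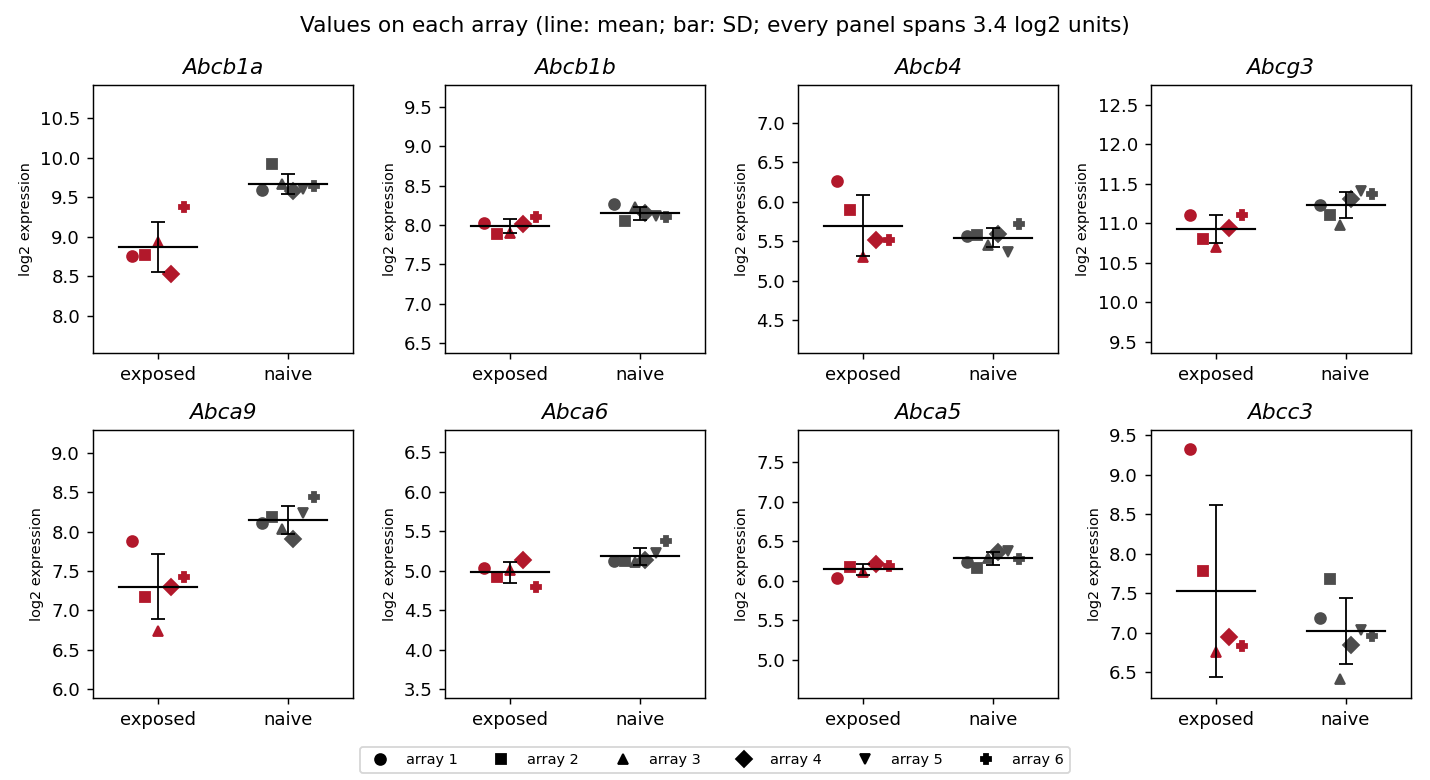
Log2 expression (vertical axes) of 8 members on every array, exposed arrays on the left and naive arrays on the right of each panel, with the group mean as a line, the SD as a bar and a symbol for each array number. Exposed and naive arrays do not overlap for Abcb1a and Abca9, and overlap for Abcb1b, Abcb4, Abcg3, Abca6, Abca5 and Abcc3.

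Both called genes lie in clusters of related genes, so their neighbours were compared with them. In RefSeq's gene order Abcb1a, Abcb1b and Abcb4 are adjacent, with no other protein-coding gene between them, and so are Abca8b, Abca8a, Abca9, Abca6 and Abca5. Abcb1b, the other P-glycoprotein gene, measured 8.02, 7.89, 7.89, 8.01 and 8.10 on exposed arrays 1, 2, 3, 4 and 6, and 8.05, 8.13 and 8.26 as its naive lowest, median and highest. On 4 of 5 exposed arrays the value lay below the naive range, and the difference of -0.17 ± 0.06 (SE; interval -0.29 to -0.04) did not pass the threshold (limma's adjusted p = 0.237). Abcb4, which moves phosphatidylcholine into bile, averaged 5.70 ± 0.38 in exposed and 5.55 ± 0.12 in naive cells, a level at the dim mark, with a difference of 0.15 ± 0.14 (SE; adjusted p = 0.751). Exposed array 1 was its highest at 6.27, and without that array the difference was 0.01.

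Among the neighbours of Abca9, Abca6 averaged 4.98 ± 0.13 in exposed and 5.18 ± 0.10 in naive cells, a difference of -0.20 ± 0.07 (SE; limma's adjusted p = 0.253). Abca5, a lysosomal member, averaged 6.15 ± 0.07 in exposed and 6.28 ± 0.08 in naive cells, a difference of -0.14 ± 0.06 (SE; adjusted p = 0.339). Abca8a at -0.02 and Abca8b at -0.06 had adjusted p of 0.941 and 0.873. Abca6, Abca8a and Abca8b lie below the dim mark, where a fall may not be measurable.

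Each array's log2 difference between a called gene and its neighbour is given as a description with no test, since the pairs were chosen after the calls were known. Abcb1a minus Abcb1b was 0.74, 0.87, 1.04, 0.51 and 1.27 on exposed arrays 1, 2, 3, 4 and 6, and lay between 1.33 and 1.87 on the naive arrays. The groups did not overlap, and the means differed by -0.63. For Abca9 minus Abca5, the other pair whose neighbour lies clear of the dim mark, the means differed by -0.71, and 4 of 5 exposed arrays lay below the naive range, with exposed array 1 inside it. Abcb4, Abca6, Abca8a and Abca8b lie near or below the dim mark, so the pairs with them mostly restate the values of Abcb1a and Abca9.

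**Figure D3:**
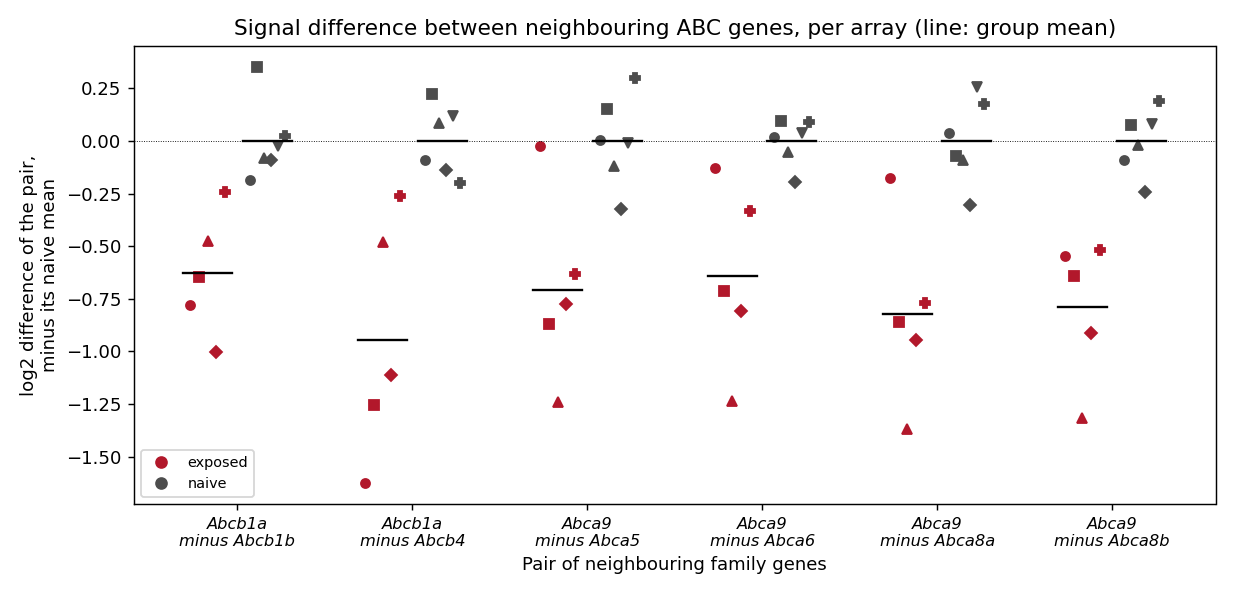
Difference in log2 signal between a called gene and its neighbour on each array, minus the naive mean of that difference (vertical axis), for 6 pairs (horizontal axis), with exposed arrays left of naive arrays, group means as lines and a symbol for each array number. All 5 exposed arrays lie below the naive ones for Abcb1a minus Abcb1b, Abcb1a minus Abcb4 and Abca9 minus Abca8b, and 4 of 5 in the other 3 pairs.

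The start regions of both called genes are printed with that of Abcb1b, the relative of Abcb1a that was not called. Whether these sequences bear on the calls was not tested. Each is the 250 bases before the RefSeq start on GRCm38.p6, read 5′ to 3′ on the gene's strand, and capitals mark the motifs found. Abcb1a lies at chr5:8566841-8567090 on the plus strand, Abcb1b at chr5:8797897-8798146 on the plus strand and Abca9 at chr11:110168154-110168403 on the minus strand.
Abcb1a: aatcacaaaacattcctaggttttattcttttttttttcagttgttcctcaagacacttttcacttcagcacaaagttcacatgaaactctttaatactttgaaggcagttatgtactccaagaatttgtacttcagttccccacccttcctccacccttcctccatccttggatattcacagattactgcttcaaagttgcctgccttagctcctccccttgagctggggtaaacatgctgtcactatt
Abcb1b: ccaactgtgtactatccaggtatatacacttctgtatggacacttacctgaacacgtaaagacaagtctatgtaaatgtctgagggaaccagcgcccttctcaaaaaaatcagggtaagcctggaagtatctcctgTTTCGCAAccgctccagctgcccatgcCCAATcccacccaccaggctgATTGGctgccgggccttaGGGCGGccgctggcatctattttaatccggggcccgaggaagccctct
Abca9: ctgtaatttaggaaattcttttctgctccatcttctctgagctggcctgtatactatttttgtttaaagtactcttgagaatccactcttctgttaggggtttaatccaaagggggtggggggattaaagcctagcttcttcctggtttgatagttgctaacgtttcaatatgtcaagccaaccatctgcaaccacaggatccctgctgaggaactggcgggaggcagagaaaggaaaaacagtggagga

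RefSeq held such a window for 37 of the 46 members. The motifs searched on both strands were the C/EBP core TTGCNNAA, the CCAAT box CCAAT, the GC box GGGCGG, the E-box CACGTG, the xenobiotic response core GCGTG and TATAAA. None of the 6 contains another. The shares of 32851 windows that held them were 9.56%, 33.9%, 32.7%, 6.02%, 28.2% and 12.4%. Counted per gene, with a match in any of its windows, the shares of 27025 genes were 10.8%, 37.5%, 35.4%, 6.86%, 30.9% and 14.3%. On that count the members with a match numbered 3, 13, 16, 4, 13 and 4 of 37. The Abcb1b window held a C/EBP core starting 114 bases before the start, CCAAT boxes at 87 and 66 bases and a GC box at 48. The Abcb1a and Abca9 windows held none of the 6 motifs, as did 25.2% of all windows. Of the 37 members, 7 held none in any of their windows, a count per gene and not per window. The Abcb1a window was 40.4% G or C and had 0 CG steps, as did 7.87% of all windows. The Abca9 window was 44.4% G or C with 2 CG steps and the Abcb1b window 52.8% with 9.

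In the rest of subfamily B, 0 of the remaining members were called. Abcb6, linked to porphyrin transport, averaged 6.22 ± 0.06 in exposed and 6.08 ± 0.07 in naive cells, with 3 of 5 exposed arrays above the naive range (difference 0.14; limma's adjusted p = 0.284). Abcb8 and Abcb10, of the inner mitochondrial membrane, differed by -0.02 and -0.03, and Abcb9, a lysosomal peptide transporter related to Tap1 and Tap2, by -0.02. Abcb11, the bile salt export pump, lay below the dim mark, with a difference of 0.17 (adjusted p = 0.488).

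Subfamily C, which holds the conjugate pumps, had 0 called members, 8 positive and 2 negative differences as deposited and 5 of each with a common 75th percentile. Abcc1, which exports glutathione conjugates and leukotriene C4 and in mice takes part in dendritic cell migration to lymph nodes, averaged 9.25 ± 0.10 in exposed and 9.22 ± 0.07 in naive cells. Its difference of 0.03 had an interval of -0.09 to 0.15 (limma's adjusted p = 0.913). Abcc4, which exports cyclic nucleotides and prostaglandins, differed by 0.02 and Abcc5, which exports cyclic GMP, by 0.14 (adjusted p = 0.450). Abcc9, the sulfonylurea receptor of a potassium channel, averaged 6.12 ± 0.33 in exposed and 5.88 ± 0.08 in naive cells (difference 0.24; adjusted p = 0.461). Exposed array 4 was its highest at 6.70, and without it the difference was 0.10.

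Abcc3, a pump for glucuronides and bile salts, varied most within the groups. It measured 9.32, 7.78, 6.76, 6.95 and 6.83 on exposed arrays 1, 2, 3, 4 and 6, against a naive lowest of 6.41, median of 6.99 and highest of 7.68. Exposed arrays 1 and 2 lay above the naive range and the other 3 within it. The means were 7.53 ± 1.08 in exposed and 7.02 ± 0.42 in naive cells, and the difference of 0.51 ± 0.39 (SE; interval -0.34 to 1.36) did not pass the threshold (limma's adjusted p = 0.681). Without exposed array 1 it was 0.06.

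The mean of 12 red pulp macrophage markers moved with Abcc3. It was 10.7, 9.66, 8.88, 8.75 and 8.66 on exposed arrays 1, 2, 3, 4 and 6 and lay between 8.07 and 9.24 on the naive arrays. Exposed array 1, exposed array 2 and naive array 2 were the 3 highest arrays for both the markers and Abcc3, and naive array 3 was the lowest for both. With the marker mean as a covariate the difference of Abcc3 was -0.28 (limma's adjusted p = 0.248). Abcb1a differed by -0.76 (limma's adjusted p = 0.0242) and Abca9 by -1.02 (adjusted p = 0.0115) with that covariate. The marker means of exposed arrays 1 and 2 lay above every naive array, so there the covariate fit extends past the naive values. None of the 12 markers was called in the fit without a covariate, although 11 had a positive difference. Their differences ran from -0.18 to 1.06 with a median of 0.73. Of the 12, 7 had an unadjusted limma p under 0.05, against 12.2% of all genes.

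**Figure D4:**
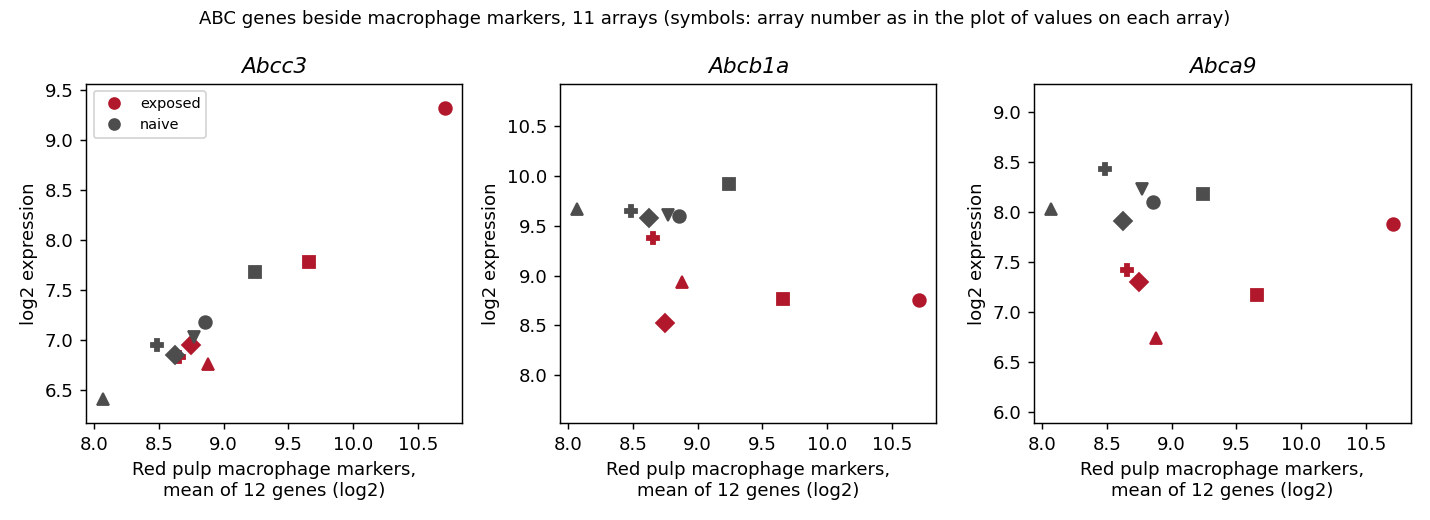
Log2 expression of Abcc3, Abcb1a and Abca9 (vertical axes) against the mean log2 level of 12 red pulp macrophage markers (horizontal axis), 1 point per array, exposed arrays in red and naive arrays in grey. The arrays with the highest marker means, exposed arrays 1 and 2 and naive array 2, have the highest Abcc3 values. Abcb1a and Abca9 are lower on every exposed array than on the naive ones. Exposed arrays 1 and 2 have marker means above those of every naive array.

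In subfamily A, 1 of 15 members was called, and 5 of 15 lay above the dim mark. Beside Abca9 and Abca5 these were Abca2, Abca3 and Abca7. Abca3, known for loading lipid into lamellar bodies of the lung, averaged 9.41 ± 0.07 in exposed and 9.52 ± 0.11 in naive cells (difference -0.11; limma's adjusted p = 0.506). Abca2 and Abca7, which handle lipids in several tissues, differed by 0.06 and 0.05. The members that serve the retina (Abca4) and the skin barrier (Abca12) lay below the mark.

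In subfamily G, Abcg3, a rodent relative of the drug pump Abcg2, measured 11.10, 10.80, 10.69, 10.94 and 11.10 on exposed arrays 1, 2, 3, 4 and 6. Its naive lowest, median and highest were 10.98, 11.27 and 11.41. The values of 3 exposed arrays lay below the naive range. The means were 10.93 ± 0.18 in exposed and 11.23 ± 0.16 in naive cells, and the difference of -0.31 ± 0.09 (SE; interval -0.50 to -0.11) did not pass the threshold (limma's adjusted p = 0.135). It passed with a replicate block by title number (-0.27, limma's adjusted p = 0.0242) or by the number in the characteristics (-0.28, 0.0375). Whether these numbers pair the samples is not known. Abcg2 itself averaged 5.78 ± 0.06 in exposed and 5.86 ± 0.11 in naive cells, just above the dim mark (difference -0.09; adjusted p = 0.672). Abcg5 and Abcg8, which together export sterols in liver and gut, lay below it.

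Subfamilies D, E and F had 0 called members and all 7 of them lay above the dim mark. Abcd2 and Abcd3, which carry fatty acids into peroxisomes, differed by 0.18 (limma's adjusted p = 0.616) and 0.09 (adjusted p = 0.703). With 1 array left out, Abcd2 ranged between 0.10 and 0.26, lowest without exposed array 1, and Abcd3 between 0.06 and 0.14. Abcd4, needed for cobalamin to leave lysosomes, differed by 0.03. Abce1, which splits ribosomes for reuse after translation, averaged 10.88 ± 0.14 in exposed and 10.92 ± 0.12 in naive cells (difference -0.04; adjusted p = 0.898). Abcf1, Abcf2 and Abcf3, which act in translation, differed by 0.04, 0.06 and -0.06.

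Arrays with title numbers 1 to 3 had been reported to stand apart from those with numbers 4 to 6 in both groups, for a reason not given in the labels. The size of that split is not given here. Differences were therefore also taken within each number set. Abcb1a differed by -0.90 on arrays 1 to 3 and by -0.66 on arrays 4 to 6, and Abca9 by -0.84 and -0.83. The exposed arrays of the second set are arrays 4 and 6 alone. Fitted within a set, Abcb1a had limma's adjusted p of 0.0419 on arrays 1 to 3 and 0.530 on arrays 4 to 6. Abca9 had 0.256 and 0.199, past the threshold in neither set. Abcb1a and Abca9, with the number set as a block, were called (limma's adjusted p = 0.00724 and 0.0163), among 2.78% of all genes. Abcg3 then had -0.29 with an adjusted p of 0.053. Abcc3 differed by 0.86 on arrays 1 to 3 and by -0.06 on arrays 4 to 6. Of the 46 members, 12 were negative in both sets, 13 positive in both and 21 of opposite sign. The interaction of group and number set was past the threshold in 0 members and 0% of all genes, and at an unadjusted limma p under 0.05 in 0 members and 4.25% of all genes. For the second set the interaction rests on exposed arrays 4 and 6 alone.

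**Figure D5:**
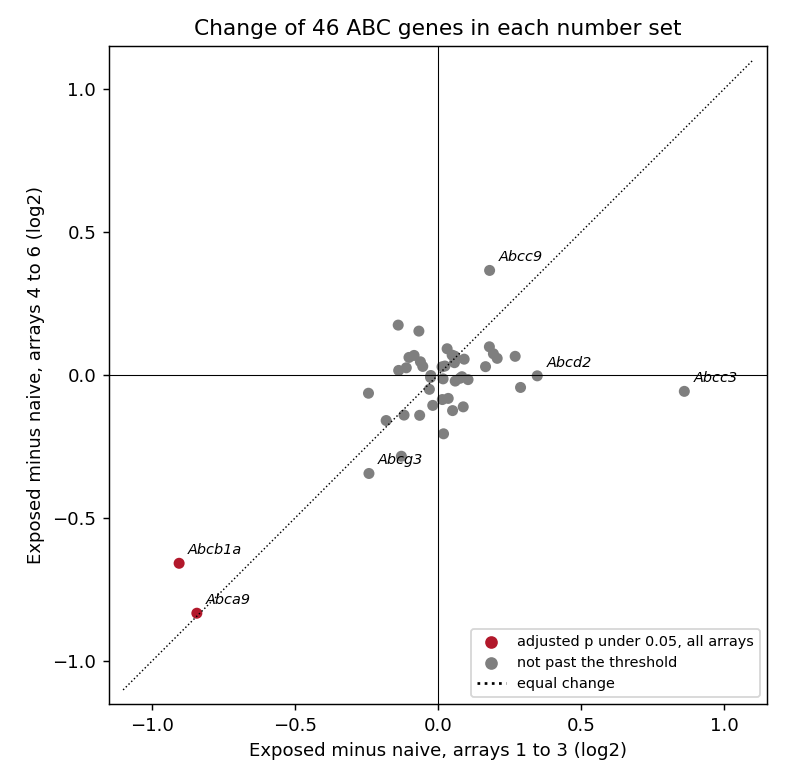
Difference between exposed and naive cells on arrays 4 to 6 (vertical axis, log2) against that on arrays 1 to 3 (horizontal axis, log2), 1 point per member, with equal change as a dotted line. Abcb1a (-0.90 and -0.66) and Abca9 (-0.84 and -0.83) are low in both sets, and Abcc3 (0.86 and -0.06) is high in arrays 1 to 3 alone. The exposed arrays among arrays 4 to 6 are arrays 4 and 6 alone.

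The members left out by the rule were not called. Abca1, which loads cholesterol onto apolipoprotein A-I, averaged 6.44 ± 0.74 in exposed and 6.19 ± 0.22 in naive cells, with exposed array 1 at 7.72 (difference 0.25; limma's adjusted p = 0.782). Abcg1, which exports sterols to lipoprotein particles, differed by 0.03 (adjusted p = 0.960), a sign that turns under a common 75th percentile. The peptide transporters Tap1 and Tap2 differed by 0.04 and -0.07, and the chloride channel Cftr, which lay below the dim mark, by -0.02.

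Genes that work beside the transporters were taken from 9 lists with 114 of 129 genes measured. Of these, 2 were called higher and 1 lower, against 0.879% and 0.546% of all genes, while 68 differences were positive and 46 negative. Ahr, the aryl hydrocarbon receptor, fell by 0.45 ± 0.10 (SE; limma's adjusted p = 0.0495), averaging 10.70 ± 0.27 in exposed and 11.15 ± 0.10 in naive cells. It was the called gene among 11 xenobiotic receptors and partners, and the call held in 2 of the 11 fits that left out 1 array, where its adjusted p reached 0.143. With a common 75th percentile its adjusted p was 0.0519 and with quantile normalization 0.0587. Of those 11 genes 4 were positive and 7 negative. The largest difference was in Pparg, at 0.72, which was not called (limma's adjusted p = 0.178). Gsr, which regenerates glutathione, rose by 0.44 ± 0.08 (SE; adjusted p = 0.0182), averaging 9.79 ± 0.17 in exposed and 9.35 ± 0.12 in naive cells, as 1 of 18 glutathione and Nrf2 genes. Without exposed array 2 it was not called (0.43; adjusted p = 0.0577), and it was called in the other 10 such fits. Nr1h3, which encodes LXR alpha, rose by 1.09 ± 0.15 (SE; limma's adjusted p = 0.00409), as 1 of 11 LXR and sterol genes. It averaged 8.54 ± 0.33 in exposed and 7.45 ± 0.23 in naive cells, and was called in all 11 fits that left out 1 array.

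The other 6 lists had 0 called genes. Their largest differences were in Slco2a1, a prostaglandin carrier (0.32; limma's adjusted p = 0.618, of 14 solute carriers), in S1pr1, a sphingosine 1-phosphate receptor (0.20; 0.509, of 14 sphingolipid genes), and in Hsd17b4, of peroxisomal fatty acid oxidation (-0.24; 0.0923, of 14). The remaining lists gave Cpox of haem synthesis (0.21; 0.326, of 15), Gcn1 of translation control (0.16; 0.649, of 9) and Mtrr of cobalamin use (0.16; 0.336, of 8).

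The sort was checked against marker lists. Dendritic cell core markers averaged 10.96 to 11.09 on exposed and 11.04 to 11.16 on naive arrays, and 0 of 9 was called. Markers of cDC1 cells averaged 10.2 to 10.5 on the exposed and on the naive arrays, with 0 of 8 called. Those of cDC2 cells averaged 9.11 to 9.31 on exposed and 9.28 to 9.44 on naive arrays, and 2 of 9 were called lower, Cd209a at -1.02 and Clec4a4 at -0.43, in the direction of Abcb1a and Abca9. Of the 9, 5 were negative and 4 positive, among them Clec10a at 0.27 and Mgl2 at 0.17, and a block for the number set also brought Cd4 (limma's adjusted p = 0.017) and Itgam (0.0222) past the threshold. With each array left out in turn, the Clec4a4 call held in 4 of 11 fits and that of Cd209a in 11. T and NK cell markers averaged 5.07 to 5.36 on exposed and 4.95 to 5.09 on naive arrays, with Ncr1 the 1 called higher of 7, a call that held in 3 of 11 such fits. B cell markers averaged 6.76 to 7.09 on exposed and 6.84 to 7.05 on naive arrays, with 0 of 8 called. Endothelial and stromal markers averaged 6.41 to 6.68 on exposed and 6.36 to 6.49 on naive arrays. Of these 8, 4 were positive and 4 negative, and Kdr was called higher, in 8 of 11 such fits. Monocyte and neutrophil markers averaged 5.89 to 6.23 on exposed and 5.78 to 5.97 on naive arrays, with 8 of 10 positive and 0 called. Csf3r, the member of that list whose groups did not overlap, differed by 0.36 (limma's adjusted p = 0.0589, and 0.0401 with a block for the number set). Plasmacytoid markers averaged 7.63 to 8.11 on exposed and 7.59 to 7.92 on naive arrays, with 0 of 6 called, and erythroid markers 5.65 to 6.18 on exposed and 5.66 to 5.84 on naive arrays, with 0 of 3 called. With the B cell marker mean as a covariate both Abcb1a and Abca9 were called. That mean was 6.90 in exposed and 6.89 in naive cells, so this covariate could hardly move a difference between the groups. No fit used the cDC2 marker mean as a covariate. A marker covariate, for B cells or for macrophages, cannot separate a change in the mixture of cells from a change per cell. The part of any cell type in the fall of Abcb1a and Abca9 was not tested.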

How the data were processed

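The deposited values are log2 expression, made by the authors with RMA per the submitters' processing notes, whose version is not given in the sources used here. RNA had been labelled with a whole-transcript kit for a 1-colour Affymetrix array, per the labels. Of 41801 listed probesets 7329 are blank, which left 34472. The given probe table names 1 gene for 23521, several for 1814 and none for 9137, and 23328 gene IDs matched RefSeq's table (GRCm38.p6). For the 1082 genes with more than 1 probeset the highest mean over all arrays was kept, so 22180 genes were tested without a filter on dim ones. Array medians were 5.53 to 5.61 and correlations between arrays 0.989 to 0.996. The number of arrays limits the precision.

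Differences were fitted over all genes with limma 3.58.1 (lmFit, eBayes with trend) in R 4.3.3 and checked on simulated data. The labels do not say that arrays came from separate mice, so the p-values rest on the spread among these 11 samples alone, which may be technical. No p-value is given for the pairs of neighbouring genes, which were chosen from the calls. Alternatives changed the fit, scaling, dim filter, probeset rule, blocks and covariates or left out 1 array. Named are the called members, otherwise the 2 members per subfamily with the largest difference, the 3 brightest, neighbours of called members, 5 relatives outside the rule, and per list the called genes or the largest difference; members beyond these are given as counts, ranges or a short value for their role. Members and lists were chosen with earlier results of these data known.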

Additional observations from a re-analysis of the deposited data

Results flagged for a closer look

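In 9 of 92 combinations of a member and a group, 1 array stood apart from the others of its group by more than the critical gap for that group size. For normally distributed values without ties, chance gives this in about 1 of 20. Of the members flagged, Abca4 and Abca16 held a value shared by 4 and 3 arrays, so that rate does not hold for them. Abcb1a on naive array 2 was 9.92, with the next naive value at 9.66, and without that array the fall of Abcb1a was -0.74 (limma's adjusted p = 0.0225). Abcc9 on exposed array 4 was 6.70, with the next at 6.08. Abcg2 on exposed array 6 was 5.67, below the next at 5.79, and Abcf1 on naive array 2 was 9.09, below the next at 9.26.

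The other members with such an array lie below the dim mark. Abca4 was 5.22 on exposed array 2 and 5.53 on naive array 6, Abca16 was 2.75 on exposed array 1 and 2.72 on naive array 2, and Abca17 was 5.07 on naive array 6.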

How the results depend on the processing

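Both Abcb1a and Abca9 were called under each alternative fit, scaling, filter and covariate run on all 11 arrays. On arrays 1 to 3 alone 1 member was called and on arrays 4 to 6 alone 0 (limma; of all genes 11 and 5), with fewer arrays in each fit; leaving out 1 array gave 1 to 2 members. Of the gene lists 3 genes were called, 0 on arrays 1 to 3, 0 on arrays 4 to 6 and 1 to 3 with 1 array left out, with the lowest count without exposed array 2. Whether the title numbers pair the samples is not known. Same-numbered arrays correlated between 0.0880 and 0.231 after group means were removed, and 2 of 5 exposed arrays correlated best with their own number. These values cannot decide it. The replicate block by title number, which leaves naive array 5 without a partner, gave 3 members including Abcg3 (-0.27; adjusted p = 0.0242), Abcb1a at -0.81 and Abca9 at -0.83; the replicate block by the number in the characteristics also gave 3, with Abcg3 at -0.28 (0.0375). Gsr was called under neither replicate block (0.0581 and 0.0792), and Ahr under that by title number alone (0.0472, against 0.0685).

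Signs that turned belong to uncalled genes. On arrays 4 to 6 alone the differences were 0.069 for Abca8a, -0.043 for Abcb4, -0.057 for Abcc3, -0.0026 for Abcd2, -0.048 for Abca1 and -0.22 for Abcg1, and on arrays 1 to 3 alone 0.020 for Abcg2 and 0.014 for Cftr. With the macrophage covariate they were 0.015 for Abca8a, -0.069 for Abcb4, -0.28 for Abcc3, 0.033 for Abce1, 0.048 for Abcf3, -0.20 for Abca1, -0.11 for Abcg1 and 0.021 for Cftr. Array weights gave -0.021 for Abcg1 and 0.0025 for Cftr, a common 75th percentile -0.0057 for Abcg1, and the characteristics' block 0.050 for Cftr. Leaving out 1 array moved Abca8a between -0.057 and 0.0014, Abca8b between -0.14 and 0.0095, Abce1 between -0.088 and 0.011, Abcf3 between -0.12 and 0.0031, Abca1 between -0.066 and 0.37, Abcg1 between -0.062 and 0.13 and Cftr between -0.062 and 0.050. The cause was not tested. Over all genes 316 were called, 195 higher and 121 lower, against 168 higher and 214 lower with a common 75th percentile, 195 and 167 with quantile normalization, 617 in all with the number set as a block, 182 with the characteristics' block and 104 without exposed array 2.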

Other observations

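Many dim members held exactly the same value on several arrays. Of the 17 members below the dim mark 10 had a value shared by at least 3 arrays (58.8%), as did 3 of the 29 members above it (10.3%). Over all genes these shares were 30.5% below the mark and 17.8% above it. Abcg5 had the same value on 5 arrays, and Abca4, Abca12, Abca13, Abca14, Abcb5 and Abcb11 each on 4. The within-group SD of such members therefore rests on fewer distinct values than arrays.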
